A study of Rattus norvegicus with 11 samples.

Results

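The comparison described here set hippocampal RNA of sham-operated rats against that of naive rats, over 7 of the 11 arrays of the series and all 45220 numbered array features. The members were chosen by title: the 4 arrays titled Hippocampi Sham and the 3 titled Hippocampi Naive. All rats were male albino Wistar rats of 12 weeks, and each array held the pooled hippocampi of 3 rats, cut from a set range of brain slices. The other 4 arrays of the series came from 12 rats given deep brain stimulation (DBS) of the ventrolateral thalamus for 1 hour a day over 14 days; they entered the fit to share the estimate of spread, and their values stand beside those of the other groups. The 12 sham rats had electrodes placed and were not stimulated. The 9 naive rats, for which the labels name no electrode, were handled much like the other rats, as the sham rats were. The labels number the naive pools out of 4, but only 3 naive arrays are among the 11 of the series. On every array the hippocampal pool carried Cy5 and a common reference carried Cy3; this reference mixed hippocampal, thalamic and cortical tissue of 4 naive, 5 sham-operated and 4 stimulated rats, so 9 of its 13 rats had been operated on.

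The hippocampus is the cortical structure that lays down spatial and episodic memory, and its dentate gyrus keeps producing neurons in adult rodents. A sham operation is the control for the surgery itself: an electrode lowered from above towards the thalamus of a rat passes through cortex and commonly through the dorsal hippocampus, and such tracks are known for reactions of astrocytes and microglia. The labels give neither the track nor the time between operation and dissection. Whether genes of such a reaction moved could not be read from these arrays, because the gene names of the platform could not be tied to the rows. For the 3544 symbols that the platform annotation gives to exactly 2 features, the mean log2 ratios of both features correlated at only 0.0106. Results are therefore given by feature number and by sets of features, no gene or cell type is named, and no marker of the tissue could be checked.

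A deposited value is the log ratio of hippocampal pool over reference for 1 feature on 1 array, taken as log2 with positive values meaning more RNA in the hippocampal pool. Neither the log base nor the direction is stated in the sources used here; another base would change every fold given below, and the opposite direction would turn every sign, while the total number of changed features would stay. The 7 arrays were alike in scale, with medians between -0.00589 and 0.000930. The log2 ratios of an array had an SD over features of 0.369 ± 0.00547 on sham arrays (SD, n = 4) and 0.380 ± 0.00394 on naive arrays (SD, n = 3). That difference of -0.0113 gave p = 0.0571 in an exact two-sided permutation test, which is the smallest p that 4 against 3 arrays allow. Deviations of neighbouring feature numbers from the group mean were uncorrelated, between -0.00288 and 0.00479 on the 7 arrays, and the changed features described next made up 0.575% to 1.15% of each of 10 equal stretches of the numbering.

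Sham arrays differed more from naive arrays than naive arrays differed among themselves. The root mean square difference between 2 arrays, taken over all features, was 0.137 to 0.191 for the 6 pairs of sham arrays, 0.143 to 0.149 for the 3 pairs of naive arrays and 0.151 to 0.213 for the 12 pairs of a sham and a naive array. The range of the mixed pairs overlapped that of the sham pairs. Nearly all features moved little: the median size of the difference between sham and naive means was 0.0571 on the log2 scale, and 99% of features differed by less than 0.479.

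At an adjusted p under 0.05 in limma, 421 of 45220 features changed (0.931%), of which 332 were higher in sham (0.734%) and 89 were lower (0.197%). In such bulk samples, fewer cells of a type and less RNA per cell cannot be told apart. At an unadjusted p under 0.05 the number was 4825 (10.7%). All 421 changed features had no overlap between their sham and naive arrays, a separation found for 13.1% of all features (6.26% with sham above naive and 6.88% with sham below). As the call was made from the same arrays, this separation is no separate support for it. The increases were the larger changes. Their median size was 0.53 on the log2 scale, or 1.45-fold (quartiles 0.39 and 0.66), against 0.39, or 1.31-fold, for the decreases (quartiles 0.31 and 0.49). At least 2-fold changes numbered 15 (0.0332%), all increases; the sizes between 1.5-fold and 2-fold held 114 increases and 11 decreases, and 281 changed features lay under 1.5-fold. Over all features the balance did not lean upwards, as the difference was above 0 for 46.6% of them.

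**Figure D1:**
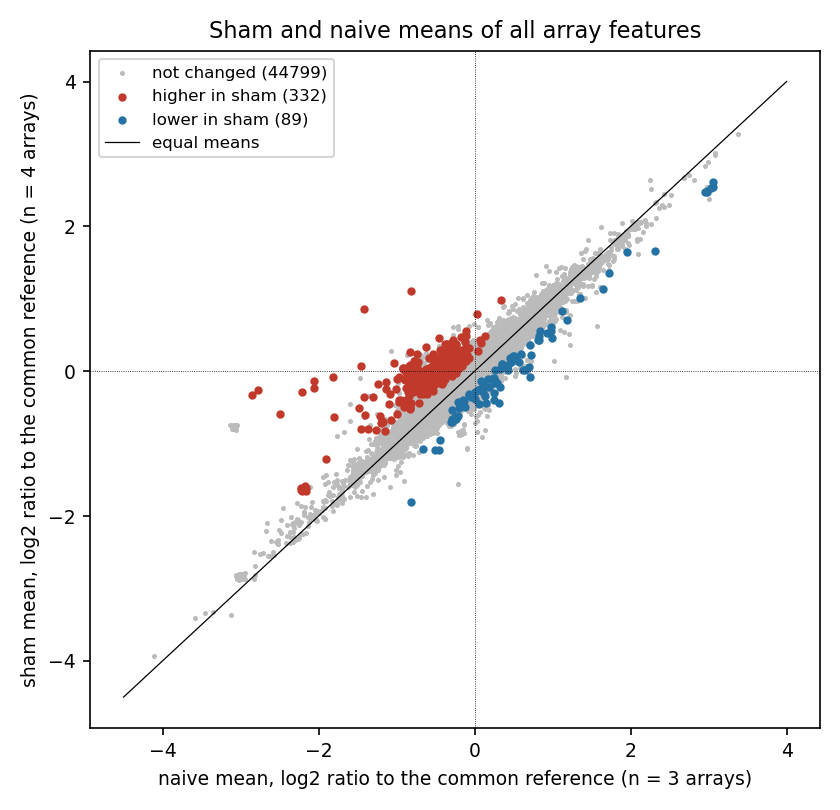
Mean log2 ratio to the common reference of every feature in sham (vertical axis, n = 4 arrays) against naive (horizontal axis, n = 3 arrays), with features higher in sham in red, lower in blue and unchanged in grey, and a line of equal means. The 332 higher features lie mostly at negative naive means and at sham means near 0, while the 89 lower features are spread over negative and positive levels.

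The features that were higher in sham had a common position relative to the reference. Their median log2 ratio was 0.37, 0.39, 0.24 and 0.29 on the DBS arrays. It was 0.04, 0.10, -0.16 and -0.06 on the 4 sham arrays, against -0.54, -0.60 and -0.53 on the naive arrays. The sham levels therefore lay around the reference and the naive levels below it. The naive mean was farther from 0 than the sham mean for 295 of the 332 features (88.9%), against 50.8% of all features. The sham mean lay within 0.2 of 0 for 209 of the 332 (63.0%) and the naive mean for 28 (8.43%), against 68.7% of all features for either group. Between these groups it was thus the naive side that lay farther from the reference. The features were picked for a difference between the groups, so for most of them both means could not lie that close. The share of all features is therefore no like measure. Operated rats gave 9 of the 13 brains of the reference, and the part of its makeup in this position was not tested.

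The features that were lower in sham did not share that position. Their median was -0.09, -0.14, -0.11 and -0.16 on the DBS arrays. It was -0.10, -0.12, -0.06 and -0.15 on the sham arrays, against 0.30, 0.26 and 0.33 on the naive arrays. The naive mean was the farther from 0 for 50 of the 89 (56.2%). These features also spread over a wider range of levels, with 10% of them above 1.09 to 1.26 on the sham arrays and above 1.61 to 1.70 on the naive arrays.

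**Figure D2:**
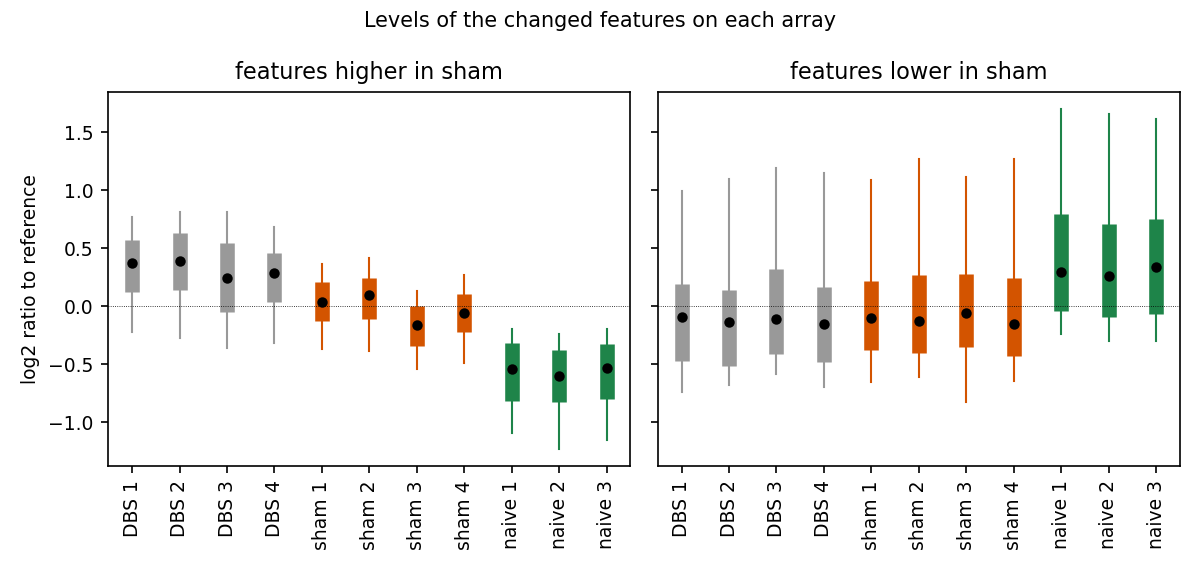
Log2 ratio to the reference on each of the 11 arrays for the 332 features higher in sham (left) and the 89 lower (right); dots are medians, thick bars the quartiles and thin lines the 10th to 90th percentiles over features. In the left panel the medians are 0.24 to 0.39 on DBS arrays, -0.16 to 0.10 on sham arrays and -0.60 to -0.53 on naive arrays; in the right panel they are -0.16 to -0.06 on DBS and sham arrays alike and 0.26 to 0.33 on naive arrays.

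The largest increase was at feature 33617. It read 0.37, -0.66, -0.38 and -0.36 on the 4 sham arrays, against -2.59, -3.00 and -2.75 on the naive arrays. Every sham array stood within 1 log2 unit of the reference level, and every naive array more than 2 below it. The DBS mean was -1.98 ± 0.30 (SD, n = 4). The sham mean was -0.26 ± 0.44 (SD, n = 4), against a naive mean of -2.78 ± 0.21 (SD, n = 3), which is a 5.76-fold higher level in sham (log2 2.52, SE 0.21, limma adjusted p = 0.00050). Feature 33617 forms set A with a near-identical partner, and set A as a whole was 2.52 higher in sham (limma adjusted p 0.00050 and 0.0015 for its features). In DBS, feature 33617 was below sham by a log2 difference of -1.72 (limma adjusted p = 0.00119, in a comparison that changed 2.82% of all features). It was above naive by 0.80 (limma adjusted p = 0.0366, where 8.17% of all features changed).

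Set B, also a pair of near-identical features, had the same outline at a smaller size. Its mean was 0.47, -0.62, -0.37 and -0.33 on the sham arrays, against -2.05, -2.27 and -2.09 on the naive arrays. The groups were separated by more than 1 log2 unit, and sham replicate 1 was the highest array as in set A. The difference of 1.93 (3.81-fold, SE 0.21) passed the threshold at both features (limma adjusted p 0.00147 and 0.00245). Here too the DBS mean, -1.53 ± 0.27 (SD, n = 4), lay between the other groups and closer to naive. The mean log2 difference between DBS and sham was -1.32 (limma adjusted p 0.00321 and 0.00358), and neither feature changed between DBS and naive (difference 0.61, limma adjusted p 0.0612 and 0.179).

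The largest increase outside set A that passed the threshold was at feature 25909. It read 1.70, 0.32, 0.95 and 0.50 on the sham arrays, against -1.39, -1.59 and -1.28 on the naive arrays. All sham arrays were above the reference and all naive arrays below it. The difference of 2.28 is 4.87-fold (SE 0.29, limma adjusted p = 0.00426). The DBS mean of 0.28 ± 0.42 (SD, n = 4) stood between a sham mean of 0.87 ± 0.61 (SD, n = 4) and a naive mean of -1.42 ± 0.16 (SD, n = 3). DBS was 1.70 above naive (limma adjusted p = 0.0024), and its difference from sham, -0.59, missed the threshold (limma adjusted p = 0.319).

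The other 10 features with an increase of at least 2-fold shared the low naive level but not the place of DBS: the DBS mean was above the sham mean for 8 of them. Over all 15 features the sham means ran from -0.64 to 1.10 and the naive means from -2.85 to -0.82, so the naive level was below the reference each time. The sham SD was above the naive SD for all 15, with a median of 0.44 in sham and 0.16 in naive. Sham replicate 1 was the highest sham array for 12 of them and sham replicate 2 for the other 3. Set C, a pair with 1 changed feature of 2, was among the smallest: its mean was 0.29, -0.18, -0.23 and -0.56 on the sham arrays, against -0.97, -1.28 and -1.32 on the naive arrays (difference 1.02, SE 0.21, limma adjusted p 0.0328 and 0.0591). The call in set C ended with robust eBayes (limma adjusted p 0.0956) and when sham replicate 1 or 2 or any 1 of the naive arrays was left out (limma adjusted p 0.0788 to 0.183), as well as with the replicate number as a block (limma adjusted p 0.0624). The DBS mean of set C was 0.13 ± 0.39 (SD, n = 4), and neither feature changed between DBS and sham (limma adjusted p 0.518 and 0.524).

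**Figure D3:**
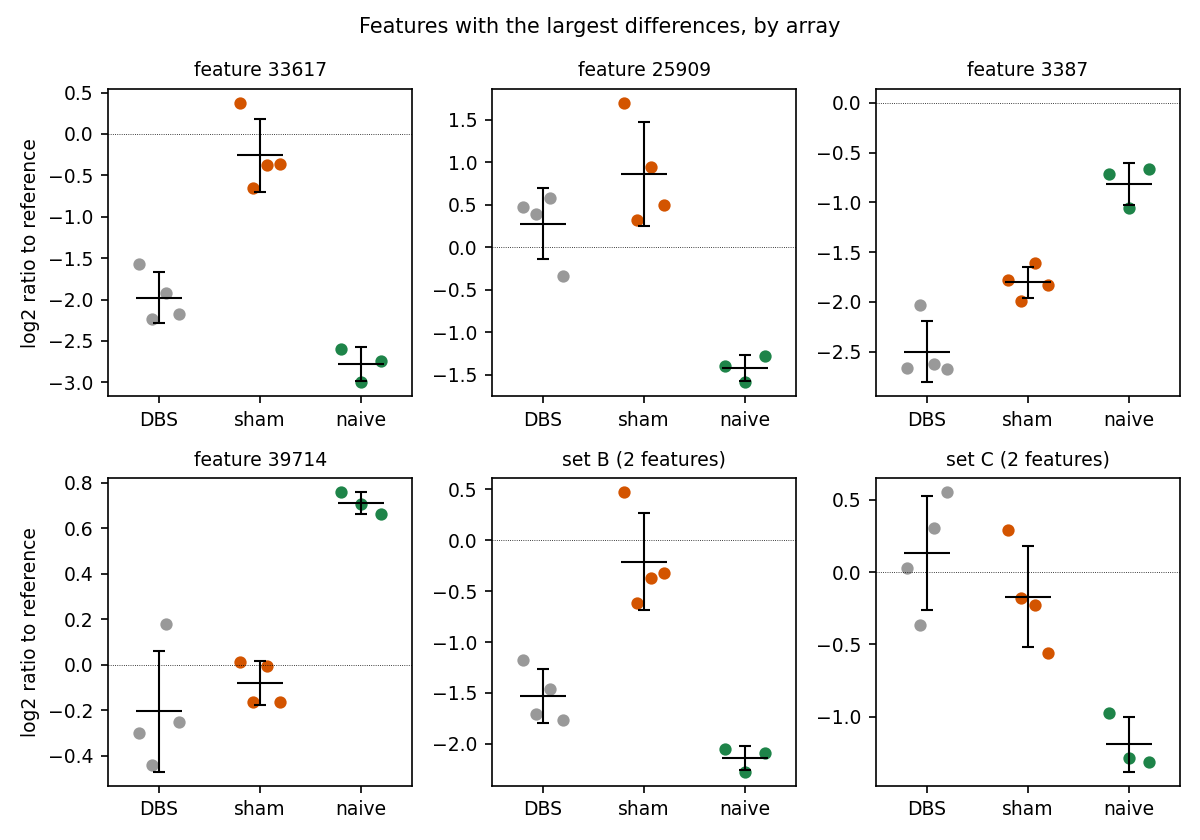
Log2 ratio to the reference on each array for the 4 features identified by number and for the means of sets B and C, with a dot per array in the order of replicates, a horizontal bar for the group mean and error bars of 1 SD (DBS n = 4, sham n = 4, naive n = 3). Sham and naive dots do not overlap in any panel, which was part of the rule for picking the 4 features. For feature 33617 the sham values run from -0.66 to 0.37 and the naive values from -3.00 to -2.59.

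The largest decrease that passed the threshold was at feature 3387. It read -1.78, -1.99, -1.61 and -1.83 on the sham arrays, against -0.71, -1.06 and -0.67 on the naive arrays. Both groups were below the reference, and every sham array was lower than every naive array. The difference of -0.99 is 1.98-fold (SE 0.15, limma adjusted p = 0.0111). The DBS mean of -2.50 ± 0.31 (SD, n = 4) was lower than the sham mean of -1.80 ± 0.16 (SD, n = 4), which was lower than the naive mean of -0.81 ± 0.21 (SD, n = 3). The call ended without naive replicate 1 or 3 (limma adjusted p 0.0656 and 0.0714). The log2 difference between DBS and sham was -0.70 (limma adjusted p = 0.0187).

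The next largest decrease was at feature 39714. It read 0.01, -0.16, -0.00 and -0.16 on the sham arrays, against 0.76, 0.71 and 0.66 on the naive arrays. The sham pools were at the reference level and the naive pools above it, with little spread in either group. The sham mean was -0.08 ± 0.10 (SD, n = 4), against 0.71 ± 0.05 for naive (SD, n = 3), a difference of -0.79 or 1.73-fold (SE 0.11, limma adjusted p = 0.00835). The call ended without naive replicate 1 or 2 (limma adjusted p 0.0512 and 0.0538). The difference between DBS and sham was -0.12, with a limma adjusted p of 0.642.

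Some features of this array read alike on all 11 arrays, as repeated spots of a probe would. Among features well away from 0, 67 such sets of 9 to 12 features were found, with 683 features in all; they were linked by their closeness after the values had been seen. The median SD between the features of a set on an array was 0.0525, small by the way the sets were picked. The set means varied more between arrays of a group, with a median SD of 0.0888 between sham arrays and 0.0595 between naive arrays. The sham SD was the larger for 45 of the 67 sets. Changed features stood in 6 of the 67 sets and numbered 46 of the 683 (6.73%). The share was 3.58% among the 5753 features as far from 0 and 0.931% among all features. Features of a set move together, so the 46 are not separate calls, and these shares were not tested against each other. In 23 sets (34.3%) the sham and naive arrays did not overlap in the set mean. The share among all features, 13.1%, is for single features, most of them nearer 0. An average over a set has less noise, so these shares are not like measures.

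The 3 repeated sets in which all features changed were all higher in sham. Set D, with 10 features, read 0.08, 0.23, -0.08 and 0.06 on the sham arrays, against -0.89, -0.73 and -0.78 on the naive arrays. Its difference of 0.87 is 1.83-fold (SE 0.09, limma adjusted p 0.000317 to 0.00155), and all 10 features kept the call when any one of the 7 arrays was left out. Set E, with 10 features, read -0.06, 0.22, -0.33 and -0.17 on the sham arrays, against -0.68, -0.75 and -0.83 on the naive arrays. The sham values were spread widely and the naive values closely, and the difference was 0.67, or 1.59-fold (SE 0.11, limma adjusted p 0.0101 to 0.028). Set F, with 10 features, was low in both groups and read -1.61, -1.55, -1.74 and -1.59 on the sham arrays, against -2.09, -2.27 and -2.22 on the naive arrays. It was 0.57 higher in sham, or 1.48-fold (SE 0.09, limma adjusted p 0.00945 to 0.0271); after quantile normalization the difference was 0.38 (lowest limma adjusted p 0.0476). No feature of set E or set F kept its call without naive replicate 2 or without naive replicate 3. The DBS means of sets D, E and F were 0.55, 0.61 and -1.18, each above the sham mean (0.07, -0.08 and -1.62). All features of these 3 sets changed between DBS and sham (limma adjusted p under 0.05), where 2.82% of all features did.

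Of the 3 sets that changed in part, 2 were lower in sham. Set G, in which 7 of 10 features changed, read -0.63, -0.56, -0.81 and -0.59 on the sham arrays, against -0.23, -0.30 and -0.28 on the naive arrays. That is a difference of -0.38, or 1.30-fold (SE 0.07, limma adjusted p 0.0204 to 0.0901). Set H, in which 6 of 9 features changed, held some of the highest ratios of the array. It read 2.48, 2.64, 2.48 and 2.46 on the sham arrays, against 2.93, 3.14 and 2.92 on the naive arrays, a difference of -0.48 (SE 0.10, limma adjusted p 0.0147 to 0.0855). In set H no feature kept the call after quantile normalization, where the difference was -0.28, or with a spread that followed the mean level (limma adjusted p of at least 0.191). The calls in set H also ended without sham replicate 1 and without any 1 of the naive arrays (lowest limma adjusted p 0.0515 to 0.0962). Set I, in which 3 of 10 features changed, was 0.46 higher in sham (SE 0.10, limma adjusted p 0.0247 to 0.0969). Its values were -0.70, -0.54, -0.93 and -0.66 on the sham arrays, against -1.11, -1.25 and -1.13 on the naive arrays. The calls in set G ended without sham replicate 1 and without any 1 of the naive arrays (lowest limma adjusted p 0.0564 to 0.0901), and those in set I when any 1 array other than sham replicate 3 was left out (0.0660 to 0.144). The DBS means of sets G, H and I were -0.59, 2.34 and -0.57. No feature of these sets changed between DBS and sham (limma adjusted p of at least 0.1479).

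**Figure D4:**
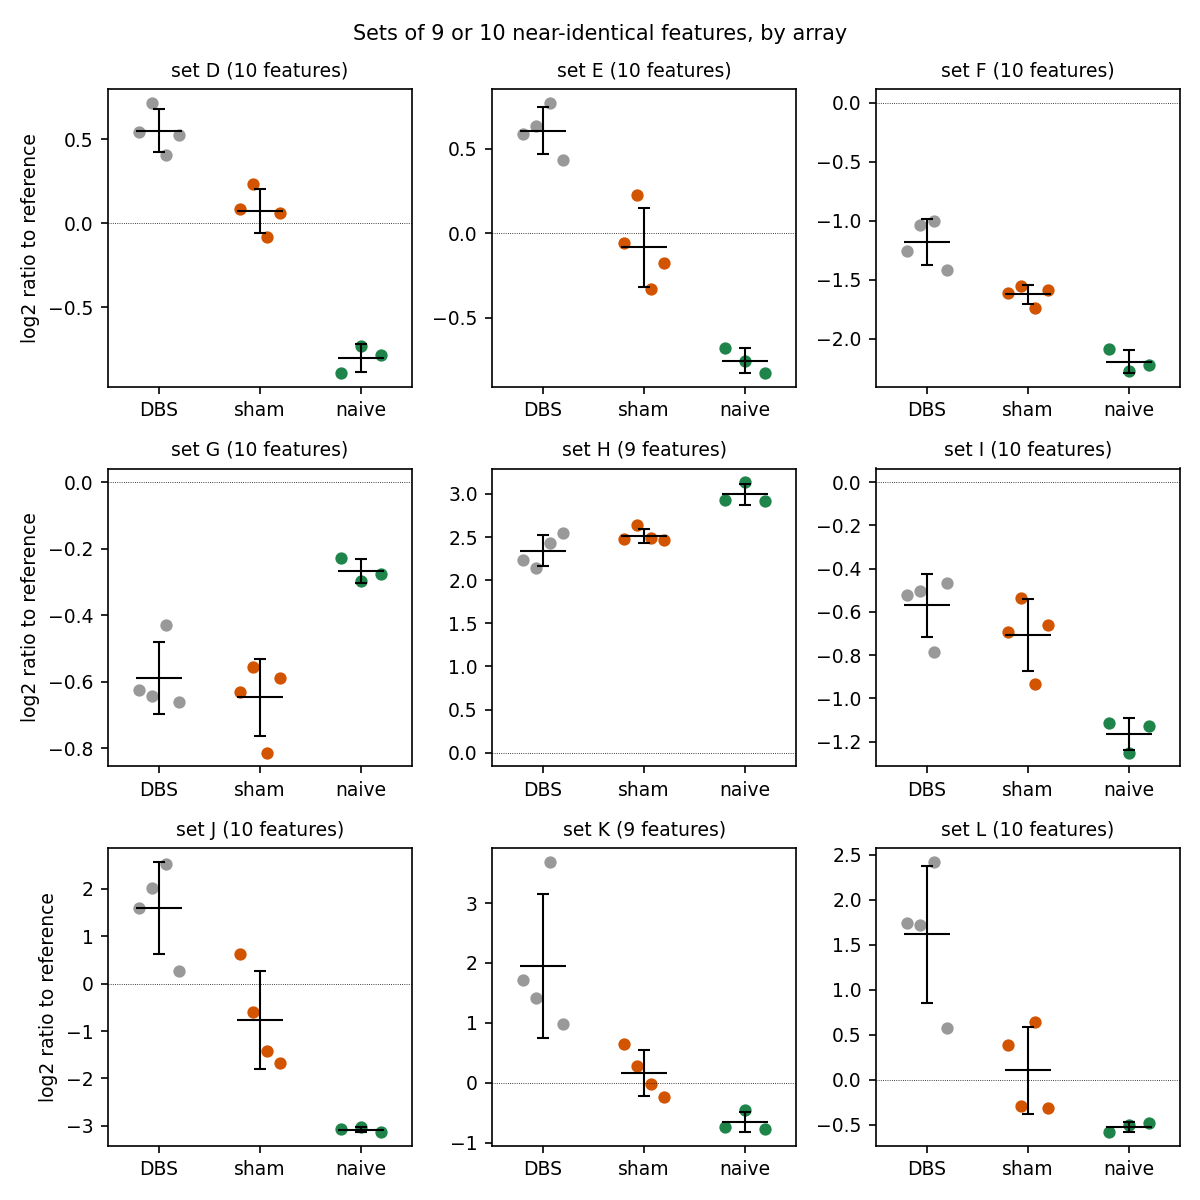
Mean log2 ratio to the reference of sets D to L on each array, with a dot per array, a bar for the group mean and error bars of 1 SD (DBS n = 4, sham n = 4, naive n = 3). Sets D, E, F and I are higher and sets G and H lower in sham than in naive. In sets J, K and L the sham and DBS arrays scatter more widely than the naive arrays.

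Large differences were not always changes. Of the 33 features at least 2-fold apart, 30 were higher and 3 lower in sham, and 18 did not pass the threshold. Set J supplies 10 of these 18. It read 0.62, -0.59, -1.43 and -1.68 on the sham arrays, against -3.07, -3.03 and -3.13 on the naive arrays. The naive pools were nearly equal and the sham pools were spread over more than 2 log2 units, all above the naive ones. The difference of 2.31 is 4.96-fold, with an SE of 0.54 and a limma adjusted p of 0.0615 to 0.0838. At least 1 feature of set J passed in 6 of 16 alternative fits, among them the fit with sham and naive arrays only (lowest limma adjusted p 0.0411) and the one with weights per group (0.0309). Sets K and L were also higher in sham without overlap and without a call. Set K read 0.64, 0.29, -0.01 and -0.24 on the sham arrays, against -0.74, -0.46 and -0.76 on the naive arrays, and set L read 0.39, -0.29, 0.64 and -0.31 on the sham arrays, against -0.58, -0.50 and -0.48 on the naive arrays. Their differences of 0.82 and 0.63 had limma adjusted p-values of at least 0.51, with a DBS SD of 1.20 and 0.77 in the shared estimate of spread. In the fit with sham and naive arrays only, the lowest limma adjusted p was 0.0505 for set K and 0.225 for set L. The DBS means of sets J, K and L were 1.61, 1.95 and 1.62, each above the sham mean (-0.77, 0.17 and 0.11). Between DBS and sham, 10 of 10, 2 of 9 and 10 of 10 features of these sets changed (limma adjusted p under 0.05), where 2.82% of all features did.

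On the features that were higher in sham, DBS and sham pools had close median SDs, both above that of naive pools. For these 332 features the median SD was 0.135 between DBS arrays, 0.134 between sham arrays and 0.0665 between naive arrays, and the sham SD was above the naive SD for 284 (85.5%). For the 89 lower features the median SD was 0.0915 in DBS, 0.0886 in sham and 0.0660 in naive, with the sham SD above the naive SD for 54 (60.7%). Over all features it was 0.0834 in DBS, 0.0738 in sham and 0.0658 in naive, with the sham SD above the naive SD for 57.2%. A range of at least 1.5 log2 units between arrays of the group was found for 114 features in sham and 35 in naive, where sham has 1 array more. The order of the sham arrays was uneven too: among the 332 higher features, sham replicate 2 was the highest sham array for 221 and replicate 3 the lowest for 248, and the median distance above the naive mean was 0.57, 0.63, 0.37 and 0.52 on sham replicates 1 to 4. Among the 89 lower features the 4 sham arrays lay 0.35 to 0.39 below the naive mean in the median, and sham replicate 3 was the highest sham array for 40 of them and replicate 1 the lowest for 31. Whether pools, rats or hybridisations account for the scatter was not tested.

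The number of changed features fell when most of the single arrays were left out. A fit with 1 array fewer also has less power, which was not separated from the weight of particular arrays. Without sham replicates 1, 2 and 4 it was 127, 165 and 171, and without naive replicates 1, 2 and 3 it was 109, 87 and 87. Without sham replicate 3, the lowest array for most increases, it was 575. Of the 421 changed features, 379 kept their call without sham replicate 3, but only 78 to 166 did so without any other of the 7 arrays. A core of 66 features kept the call whichever of the 7 arrays was left out. The same 66 kept it in all 16 alternative fits of single features. Those 16 include the 7 fits that define the core, and all reuse the same arrays, so this is no separate support. The core held 60 increases and 6 decreases, with a median size of 0.64 (0.35 to 2.52), and 8 of its features were at least 2-fold higher in sham. Features 33617 and 25909, both features of sets A and B and all of set D belong to it; features 3387 and 39714 do not.

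**Figure D5:**
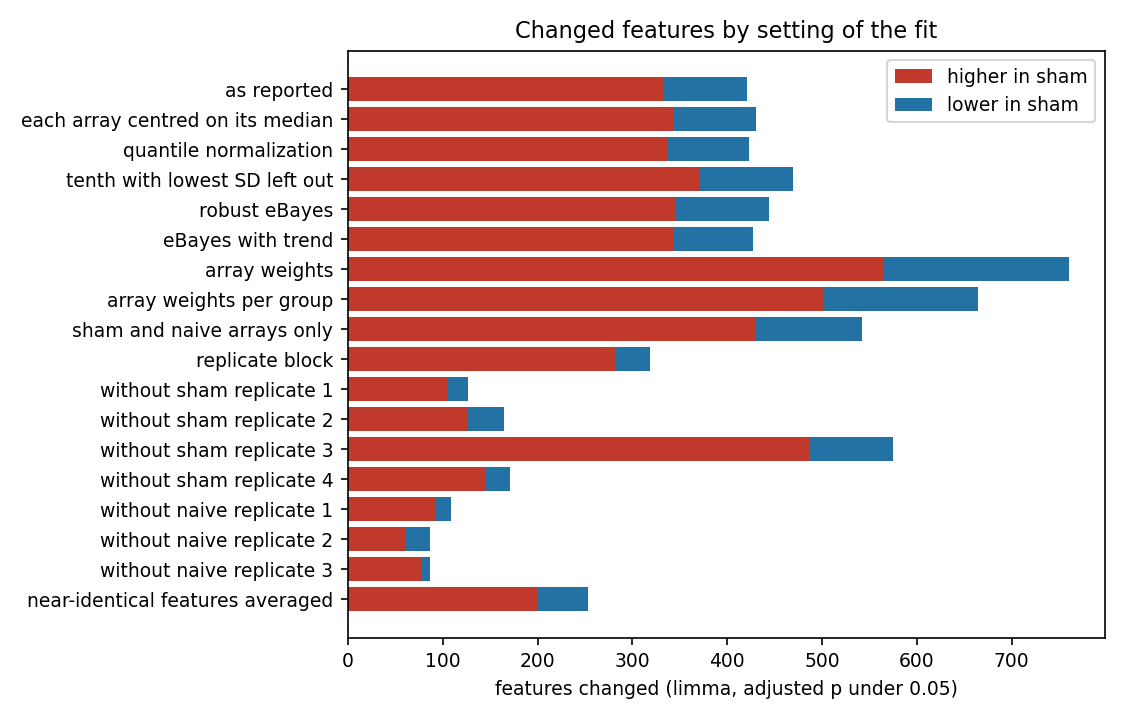
Number of features changed between sham and naive (limma, adjusted p under 0.05) as reported and under each alternative setting, with increases in red and decreases in blue. The bars run from 87 features without naive replicate 2 or 3 to 760 with array weights, and increases outnumber decreases in every bar.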

How the data were processed

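Per the labels' protocols, a low-input kit amplified the RNA for 2-colour arrays. The deposited values are log ratios, taken here as log2; background correction, normalization and scan batches were not given in the sources used here. Therefore no batch was tested, signal over background is unknown, and precision is limited by the number of arrays. Replicates are called biological in the labels.

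limma 3.58.1 (lmFit, eBayes; R 4.3.3) compared group means, fitted on the 11 arrays together, two-sided and with Benjamini-Hochberg adjustment over 45220 features; a feature counts as changed at an adjusted p under 0.05. The code was tested on simulated data. Identified features are the 2 largest differences of each sign among changed features without overlap, 1 per set. Near-identical features were linked by average linkage of their root mean square distance over the arrays (0.15 for sets A to C, 0.10 for sets D to L), among the 5753 features with a root mean square level of at least 0.45. Sets A to C have a difference of at least 1 and a changed feature; sets D to L have 9 to 12 features and a changed feature or a difference of at least 1.5-fold. The comparison and these rules were chosen with earlier results of these data known. Alternatives were median centring, quantile normalization, an SD filter (10% of features), robust and trended eBayes, array weights, array weights per group, fewer arrays, a replicate block and averaged sets. Python 3.11.15 with scipy 1.17.1 served for the rest.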

Additional observations from a re-analysis of the deposited data

Results flagged for a closer look

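In 3 of 34 groups of 4 arrays examined (the sham and the DBS arrays of the 4 identified features, the 12 sets and the SD over features), 1 array stood apart from the other 3 by more than Dixon's 95% limit, which chance does in about 1 group of 20. In set H, sham replicate 2 stood at 2.64 and the next sham array at 2.48. At feature 3387, DBS replicate 2 stood at -2.03 and the next DBS array at -2.62. In set G, DBS replicate 3 stood at -0.43 and the next DBS array at -0.63.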

How the results depend on the processing

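No identified feature or set turned its direction in any alternative, but most of these fits could not have turned it. The sham and naive arrays of each did not overlap, so leaving out 1 array kept the sign. Several other fits, such as robust and trended eBayes, left the difference itself unchanged. The 421 changed features became a number within 1.5 times of that under centring, quantile normalization, the SD filter, robust and trended eBayes, the fit of sham and naive arrays only and the replicate block. Array weights gave 760 (564 higher, 196 lower), array weights per group 664 (502 higher, 162 lower) and averaging near-identical features 253 (200 higher, 53 lower), where fewer features were tested. The at least 2-fold changes numbered 29 with array weights, 28 with weights per group, 28 with the replicate block and 23 with sham and naive arrays only; the cause was not tested. With 1 array fewer, there were 87 to 575 changed features, 61 to 487 higher, 9 to 88 lower and 8 to 30 at least 2-fold. With the replicate number as a block, 319 features changed, 283 higher and 36 lower. Deviations of same-numbered sham and naive arrays from their group means had correlations of -0.0903, -0.00868 and 0.15 over features. With so few pairs, and deviations that cancel within each group, these values cannot decide whether the numbers pair the arrays. The block ended the calls in sets C and G (lowest limma adjusted p 0.0624 and 0.0570) and gave one in set J (0.0192). The difference in SD over features ran from -0.0136 to -0.00913. The settings for the sets were added after seeing the data.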

Other observations

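Single pools carried excursions that the group means hide; these patterns were picked after the values were seen and were not tested. Counting features on which an array lay at least 0.8 log2 units beyond all 10 others, sham replicate 3 had 22 lower and 25 higher and sham replicate 1 had 18 lower and 17 higher. Sham replicates 2 and 4 had 6 and 4 lower and 2 and 3 higher, and naive replicates 1 to 3 had 4, 6 and 11 lower and 5, 4 and 4 higher. Of the features on which sham replicate 1 stood apart, 2 changed between sham and naive: feature 18798 of set A and feature 21597 of set B. No feature on which another single array stood apart did so, against 0.931% of all features. On 5 further features sham replicates 1 and 3 were both low, at -1.58 and -1.66 on average, while all other arrays averaged between -0.03 and 0.05; the most extreme of them read -3.17 and -2.76 on these arrays and -0.12 and -0.15 on the other sham arrays. On 9 features sham replicates 2 and 4 and naive replicate 1 were high together, at 2.23, 2.68 and 2.10 on average, against 0.95 and -0.55 on the other sham arrays and 0.50 and 0.28 on the other naive arrays. None of these 14 features changed between sham and naive at the threshold (limma, adjusted p of at least 0.33).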
